A study of Mus musculus with 2 samples.

Results

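Natural killer (NK) cells and innate lymphoid cells were looked for among single cells of the abdominal aorta of mice with an aneurysm (AAA) that had been brought about with porcine pancreatic elastase (PPE). One library came from C57BL/6J mice (WT) and the other from mice with a global deletion of Gsdme (Gsdme-KO), and both groups had received PPE, so no aorta without an aneurysm was compared. The labels give neither the number, age or sex of the mice behind a library nor the background strain of the deletion. Gsdme encodes gasdermin E, which forms pores in the plasma membrane once a caspase has cut it, and the comparison asks how aneurysm cells differ where the gene is deleted. With 1 library per group there was no replicate, no test was run, and each ratio below compares these 2 libraries. Its 95% interval covers counting error only, not differences between mice.

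The rule found 69 cells among 16403 kept cells, 37 of 7619 in WT and 32 of 8784 in Gsdme-KO. All 69 had 500 or more unique molecular identifiers (UMIs, each counting 1 captured transcript) and 250 or more genes, with 25% or less of the UMIs mitochondrial. They had no UMI of Cd3d, Cd3e or Cd3g, the chains that mark T cells, and none of Cpa3, a mast cell protease. They held at most 2 UMIs of Col3a1, a fibroblast collagen, and at most 2 of the complement genes C1qa, C1qb and C1qc together, which mark macrophages. The 54 NK cells (33 in WT, 21 in Gsdme-KO) had a UMI of at least 2 of the 6 genes Ncr1, Klrb1c, Klre1, Klra8, Eomes and Prf1. The 15 cells of the group 2 innate lymphoid arm (ILC2, 4 in WT and 11 in Gsdme-KO) had a UMI of at least 3 of the 6 genes Gata3, Il1rl1, Il13, Il5, Rora and Hs3st1. No cell met both conditions. Because these UMIs chose the cells, the levels of the rule's genes are given as a description only.

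NK cells are lymphocytes without a rearranged antigen receptor. They kill by releasing perforin and granzymes, weigh signals from activating receptors that pair with the adaptors encoded by Tyrobp, Fcer1g and Cd247 against inhibitory Ly49 and NKG2A receptors that read MHC class I, and depend on the transcription factors encoded by Eomes and Tbx21. ILC2 cells carry no antigen receptor either. They respond to interleukin 33 through the receptor encoded by Il1rl1, make interleukins 5 and 13 and amphiregulin under the control of GATA3 and RORα, and are known as resident cells of the adventitia around vessels.

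The promoters of Gzma, Nkg7, Ncr1, Il2ra and Il7r are shown because these genes separate the 2 arms from each other in the results below. Gzma and Nkg7 were high in NK cells here, Ncr1 is a gene of the rule, and Il2ra and Il7r were high in ILC2 cells. Il7r was also high in T cells. Each run is the 250 bases before the RefSeq start (GRCm38.p6), 5′ to 3′ on the gene's strand, and capitals mark matches on either strand to the RUNX core TGTGGT or to the T-box sequence AGGTGTGA. The sequence AGATAA, which factors such as GATA3 bind, was also searched on both strands.
Gzma, chr13:113100982-113101231, minus strand: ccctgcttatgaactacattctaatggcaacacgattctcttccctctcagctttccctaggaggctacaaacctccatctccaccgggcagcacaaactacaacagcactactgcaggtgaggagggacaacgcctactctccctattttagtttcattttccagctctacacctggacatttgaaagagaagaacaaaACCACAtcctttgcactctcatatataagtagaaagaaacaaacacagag
Nkg7, chr7:43436888-43437137, plus strand: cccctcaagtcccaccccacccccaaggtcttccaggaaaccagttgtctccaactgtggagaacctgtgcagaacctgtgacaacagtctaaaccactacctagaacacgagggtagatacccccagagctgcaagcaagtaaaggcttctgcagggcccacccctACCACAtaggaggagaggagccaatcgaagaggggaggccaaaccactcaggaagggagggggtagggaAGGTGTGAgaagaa
Ncr1, chr7:4337465-4337714, plus strand: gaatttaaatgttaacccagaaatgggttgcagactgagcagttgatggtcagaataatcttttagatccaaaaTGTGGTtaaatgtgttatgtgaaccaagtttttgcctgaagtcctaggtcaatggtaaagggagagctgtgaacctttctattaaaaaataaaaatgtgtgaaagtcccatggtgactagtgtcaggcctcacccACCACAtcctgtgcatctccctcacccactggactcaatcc
Il2ra, chr2:11642542-11642791, plus strand: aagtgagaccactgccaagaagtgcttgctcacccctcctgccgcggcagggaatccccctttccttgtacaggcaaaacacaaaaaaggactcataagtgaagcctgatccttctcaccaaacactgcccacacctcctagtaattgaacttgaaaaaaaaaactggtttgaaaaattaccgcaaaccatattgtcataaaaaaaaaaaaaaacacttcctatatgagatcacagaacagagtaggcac
Il7r, chr15:9529877-9530126, minus strand: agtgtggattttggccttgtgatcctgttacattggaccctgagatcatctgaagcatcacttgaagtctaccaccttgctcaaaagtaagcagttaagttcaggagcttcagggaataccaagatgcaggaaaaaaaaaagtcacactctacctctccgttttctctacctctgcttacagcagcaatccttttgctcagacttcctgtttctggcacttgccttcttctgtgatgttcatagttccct

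The RUNX core occurred once in the Gzma and Nkg7 windows and at 2 places in that of Ncr1 (the upstream one of 2 starts in the table), against 14.0% of the 32851 windows of 250 bases with at least 1 match. The T-box sequence occurred only in the Nkg7 window among the 5, starting 14 bases before the start, and in 1.12% of all windows. No match overlapped another. Neither Il2ra nor Il7r held any of the 3 sequences in this window, and AGATAA, found in 9.99% of all windows, was in none of the 5. These are matches of letters in these windows and nothing more.

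The NK cells had medians of 2412 UMIs in WT and 2228 in Gsdme-KO, and the ILC2 cells 3224 and 2982, against 3835 and 4062 over all kept cells. NK cells summed to 84544 and 56853 UMIs and ILC2 cells to 12810 and 34849, so only genes with high counts could be compared (the libraries held 38988898 and 52532964 UMIs in 7736 and 9034 deposited barcodes). Of the deposited barcodes 73 sequences occurred in both libraries, and none of these was among the 69 cells. Gsdme had 0 UMIs in the NK cells and in the ILC2 cells of both libraries, which at 3 UMIs allows up to 35.5 and 52.8 CPM (UMIs of the gene per 1000000 UMIs) in NK cells. Over all kept cells Gsdme had 215 UMIs in WT (5.53 CPM) and 133 in Gsdme-KO (2.55 CPM), so the library labelled Gsdme-KO still held Gsdme UMIs. A UMI can come from a part of the gene that a deletion leaves in place, so this count does not check the label fully.

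NK cells made up 0.433% of kept cells in WT (95% exact binomial interval 0.298% to 0.608%) and 0.239% in Gsdme-KO (0.148% to 0.365%), a ratio of 0.552 (0.320 to 0.953). Among cells with a Ptprc UMI (CD45, the leukocyte surface phosphatase) and at most 2 Col3a1 UMIs, the shares were 0.713% and 0.466%, a ratio of 0.654 (0.378 to 1.13), so with this denominator the interval held 1. ILC2 cells went the other way, at 0.0525% of kept cells in WT (0.0143% to 0.134%) and 0.125% in Gsdme-KO (0.0625% to 0.224%), a ratio of 2.39 (0.760 to 7.49). With the second denominator it was 3 against 11 cells, 0.0668% and 0.244%, a ratio of 3.65 (1.02 to 13.1). The first ratio rests on 4 against 11 cells, of which 2 of the 11 held many UMIs of other cell types (below), and without these 2 it was 1.95. The second ratio includes the same 2 cells and was not computed without them, so its lower limit just above 1 is not read as a difference. T cells, gated on Cd3 genes, had a ratio of 0.818 (0.655 to 1.02). Both arms together took 0.486% and 0.364%, a ratio of 0.750 (0.468 to 1.20).

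Many cells lay close to the limits of the rule. Just outside the NK limit, 23 WT and 20 Gsdme-KO cells had 1 of the 6 genes, and Nkg7, a granule membrane gene that the rule did not use, had a UMI in 17.4% and 10% of them. Just inside, at 2 of the 6 genes, there were 6 and 4 cells, with Nkg7 in 100% and 75.0%. Before the exclusions 44 WT and 45 Gsdme-KO cells had enough NK genes, and 8 and 17 of these were left out for a Cd3 UMI alone. Just outside the ILC2 limit stood 22 and 32 cells with 2 of the 6 genes, with the interleukin 7 receptor gene Il7r in 45.5% and 31.3%, and just inside stood 1 and 6 cells with 3 genes. Among the cells with enough ILC2 genes before the exclusions (18 and 55), 4 and 27 were left out for Col3a1 alone. The shares above therefore count cells that passed these exclusions, which removed unlike numbers from the 2 libraries.

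**Figure D1:**
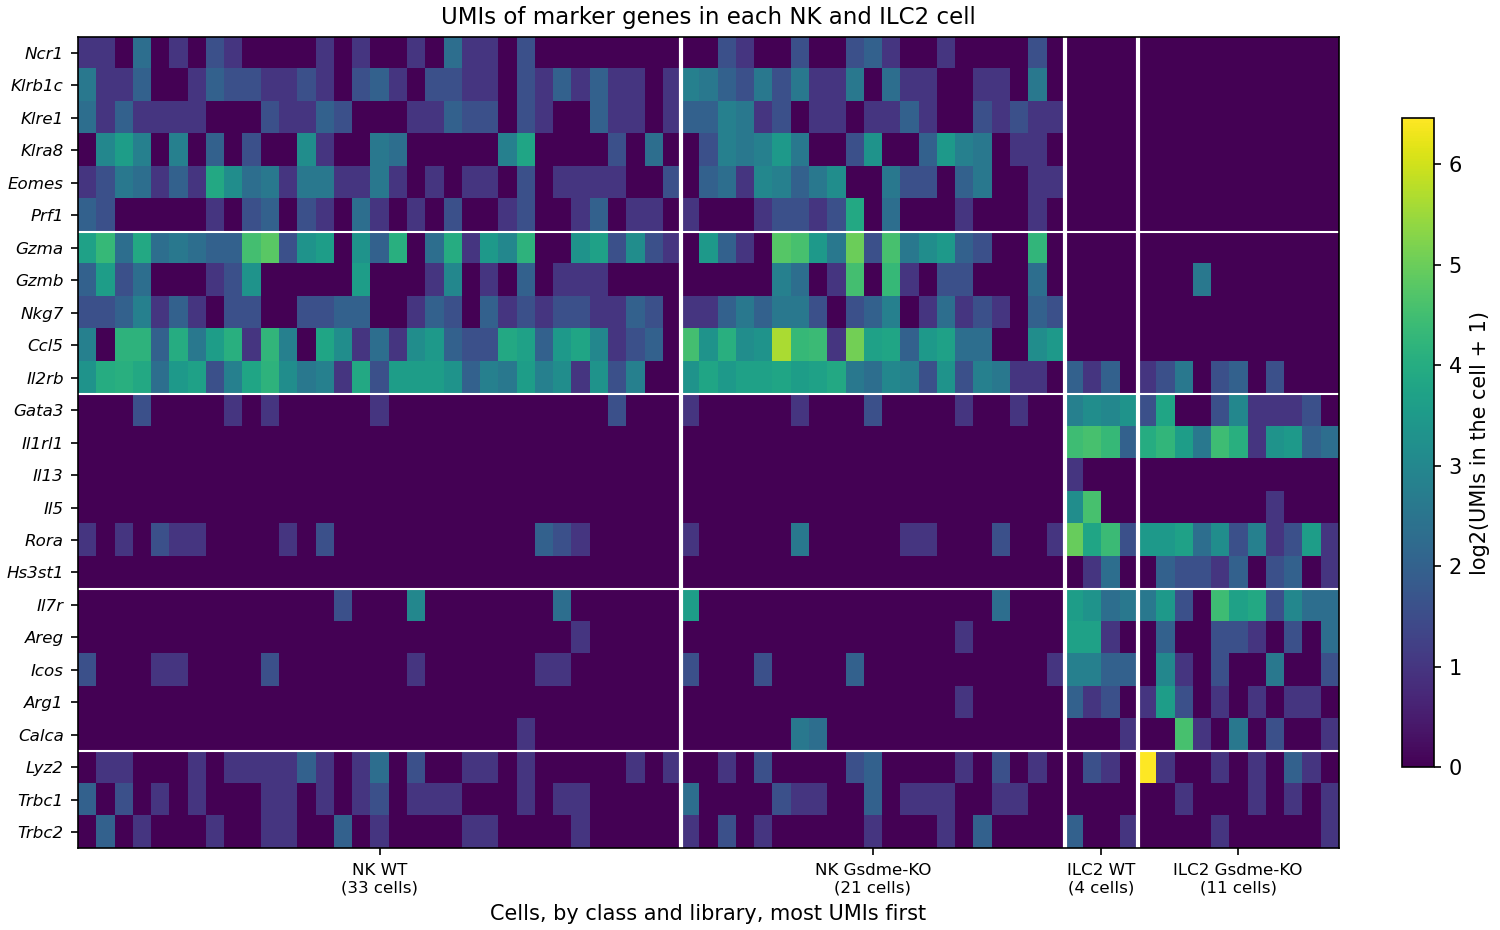
UMIs of 25 genes (rows) in each of the 69 cells (columns, grouped by class and library and ordered by total UMIs), coloured by log2(UMIs + 1). The upper rows are genes of the NK rule and 5 NK genes outside it, the middle rows are genes of the ILC2 rule and 5 other genes, and the lowest rows are a myeloid gene and 2 T cell receptor constant genes. Gzma, Nkg7 and Ccl5 had UMIs in most NK cells and in none of the ILC2 cells, and Lyz2 reached 87 UMIs in 1 Gsdme-KO cell of the ILC2 arm.

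The label of the NK arm was checked on genes outside the rule. Gzma (granzyme A, a secreted protease of killer cells, chr13:113093825-113100981 in mm10) reached 3016 CPM in NK cells of WT and 3166 in those of Gsdme-KO, with UMIs in 29 of 33 and 16 of 21 cells. T cells held it at 43.5 and 21.4 CPM and ILC2 cells at 0 UMIs. Ccl5, a chemokine stored by killer lymphocytes, stood at 2744 and 4608 CPM and Nkg7 at 662 and 879 CPM. Il2rb, the receptor chain for interleukins 2 and 15, had UMIs in 31 of 33 and 20 of 21 NK cells. Neither Ccl5 nor Il2rb was at least 4-fold higher in NK than in T cells in both libraries, so neither separates these 2 classes by that limit. Fcer1g had UMIs in 84.8% and 90.5% of NK cells and in 22.8% and 13.8% of B cells, which should lack most of these genes and had similar depth (medians of 2326 and 2732 UMIs). Gzma was in 2.01% and 0% of B cells, Nkg7 in 0.671% and 0%, and Il2rb in 1.34% and 0.725%.

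The genes of the rule were uneven among NK cells. Klrb1c (NK1.1) had UMIs in 27 of 33 WT and 16 of 21 Gsdme-KO cells, Eomes in 27 and 15, Klre1 in 23 and 17, Klra8 (the activating receptor Ly49H) in 14 and 14, Prf1 (perforin) in 17 and 10 and Ncr1 (NKp46) in 13 and 8. At the depth of these cells, a cell with no UMI of a gene cannot be told from a cell without its transcript. Gzmb, granzyme B, was in 15 of 33 and 9 of 21 cells, and 14 and 9 of those cells also had Gzma. Tbx21 (T-bet) was in 10 and 8 cells, of which 9 and 6 also had Eomes. Itgam, an integrin of mature NK cells, was in 15 and 10 cells, whereas Itga1, an integrin of ILC1 and resident NK cells, was in 4 and 2, and 2 and 1 cells had both. S1pr5, an exit receptor of circulating NK cells, was in 4 and 1 cells. Cytokine genes were sparse, with Ifng in 3 of 33 and 0 of 21 cells and Xcl1 in 9 and 4.

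Against T cells, 13 of 1950 measured genes (0.667%) were at least 4-fold higher in NK cells in both libraries, and 35 (1.79%) were at most 0.25-fold. A gene counted as measured when its higher group had at least 20 UMIs and a UMI in at least 10% of cells, and the rule's own genes were left out. Klra4 (the activating receptor Ly49D) led with 426 and 792 CPM in NK cells and 0 UMIs in T cells, at least 71.8-fold in WT and at least 123-fold in Gsdme-KO with 3 counts set for 0. Ly49 genes are near-identical copies, so reads may be split between them and single members are uncertain. Gzma was 69.4-fold (44.8 to 113) and 148-fold (78.6 to 314) higher. Irf8, a transcription factor of myeloid cells that NK cells also use, was 101-fold (41.4 to 318) and 60.3-fold (29.9 to 138) higher. The receptor adaptor genes Fcer1g and Tyrobp were 9.08-fold and 18.6-fold higher in WT and 14.2-fold and 10.3-fold in Gsdme-KO.

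Other genes that separated NK from T cells do not belong to the killing machinery. Vegfa, the endothelial growth factor, stood at 887 and 1091 CPM in NK cells against 37.6 and 42.8 CPM in T cells, 23.6-fold (14.1 to 41.4) and 25.5-fold (15.2 to 44.5) higher, with UMIs in 18 of 33 and 14 of 21 NK cells. Car2, a carbonic anhydrase, was 73.0-fold and 18.1-fold higher, Spry2, an inhibitor of receptor tyrosine kinase signalling, 20.6-fold and 19.2-fold, Atp1b1, a sodium pump subunit, 16.8-fold and 19.7-fold, and Klri2, an NK receptor, 19.6-fold and 329-fold (1 UMI in Gsdme-KO T cells, interval 55.7 to 13305). Exons of Atp1b1 overlap those of Nme7 on the other strand, and whether the counting used strand is unknown from the labels.

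T cell genes lay at the low end. Bcl11b, a factor of T cell commitment, stood at 35.5 CPM (3 UMIs) and 0 in NK cells against 490 and 398 CPM in T cells. Cd8a, Themis, Inpp4b, Cxcr6, Ly6a, Icos, Il7r, Camk4 and Tmem64 were the other 9 named, with ratios of 0.0274 (Ly6a) to 0.126 (Tmem64) in WT. Of 11 T cell genes outside the rule, 8 were measured, all 8 were lower in NK than in T cells, and 5 were at most 0.25-fold in each library. Over all 1950 genes 1516 were lower in WT and 1580 in Gsdme-KO, and 1.79% were at most 0.25-fold in both. The gates also asked for 0 Cd3 UMIs in NK cells and at least 2 in T cells, so this list is given as a description. The summed level of the 11 genes was 781 and 651 CPM in NK cells against 3912 and 3583 in T cells and 11.9 and 20.4 in B cells. Trac, the constant chain of the alpha beta receptor, had UMIs in 12.1% and 9.52% of NK cells against 81.6% and 78.5% of T cells. Trbc1 was in 45.5% and 47.6% of NK cells, where germline transcripts of the beta chain locus are known, and in 36.7% and 34.2% of T cells. Whether a few NK cells were T cells without a Cd3 UMI was not tested, and leaving out every cell with a UMI of Trac, Trbc1, Trbc2 or Trdc left 9 and 7 NK cells.

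**Figure D2:**
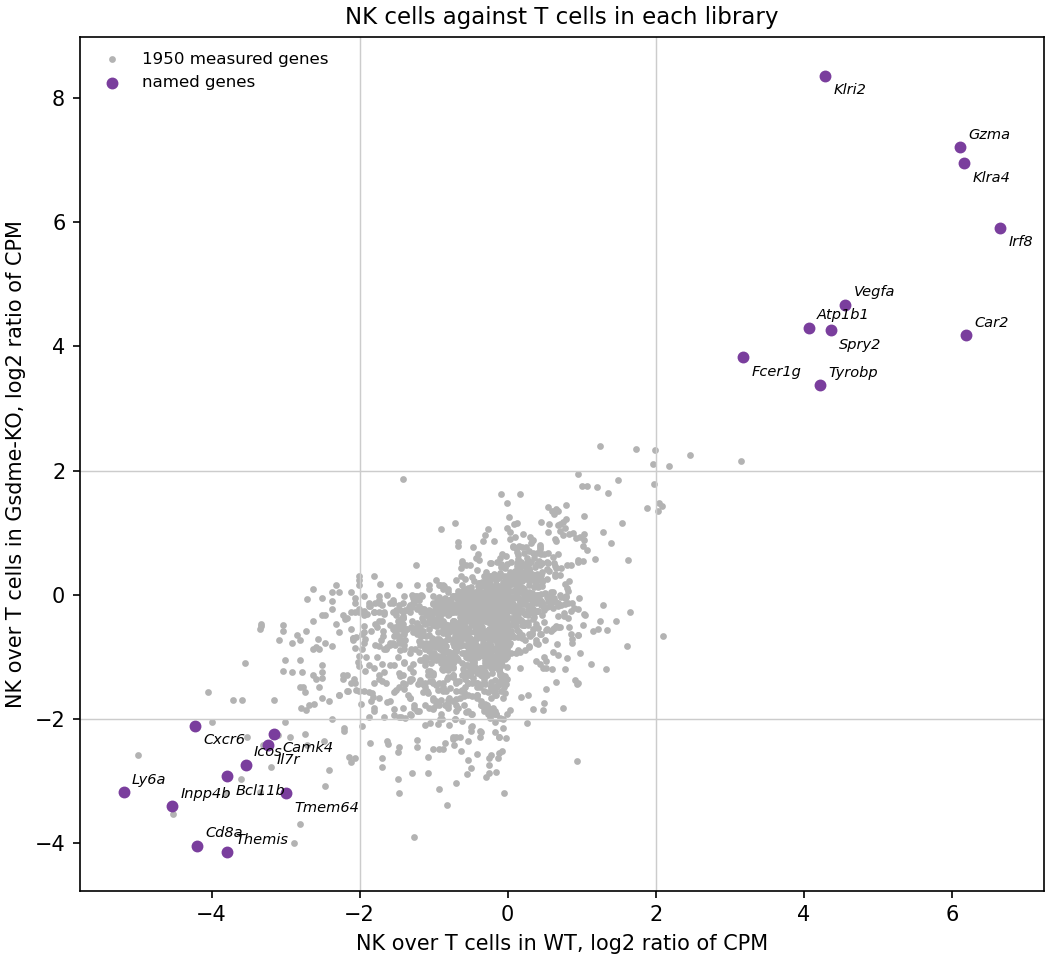
Log2 ratio of CPM of NK over T cells in WT (x axis) and in Gsdme-KO (y axis) for the 1950 measured genes (grey) and the 10 named genes each way (purple), with lines at 4-fold. A gene with 0 UMIs in a group is placed with 3 counts set for 0, and Gzma, Klra4 and Irf8 lie far to the upper right in both libraries.

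NK and ILC2 cells differed by 4-fold or more in both libraries for 26 of 362 measured genes, 19 (5.25%) higher and 7 (1.93%) lower in NK cells. Gzma and Ccl5 had 0 UMIs in all 15 ILC2 cells and were at least 12.9-fold and at least 11.7-fold higher in WT NK cells and at least 36.8-fold and at least 53.5-fold in Gsdme-KO. Ms4a4b, a membrane gene of killer lymphocytes, also had 0 UMIs in ILC2 cells. Il2rb was 5.48-fold (2.62 to 13.8) and 6.29-fold (3.70 to 11.5) higher in NK cells, and Itgb1, the beta 1 integrin, 16.7-fold and 9.50-fold. Bcl2l11, which encodes the death-promoting protein BIM, was 5.00-fold (1.66 to 24.7) and 13.7-fold (4.49 to 68.1) higher. Dusp2, Irf8, Ugcg and Tnfrsf1b completed the named genes.

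On the ILC2 side, Il2ra, the high-affinity interleukin 2 receptor chain, had 21 UMIs in the 4 WT and 38 UMIs in the 11 Gsdme-KO cells and none in the 54 NK cells, at least 46.2-fold and at least 20.7-fold lower in NK cells. Il7r stood at 2264 and 2324 CPM in ILC2 cells and at 154 and 264 CPM in NK cells. T cells held Il7r at 1453 and 1410 CPM. Lmo4 (3123 and 1263 CPM in ILC2 cells, 177 and 70.4 CPM in NK cells) lay on the same side, as did Tmem64 and Zfp36l1. Fosb, an AP-1 factor that cells switch on within minutes of a stimulus, stood at 8041 and 5452 CPM in ILC2 cells and 426 and 264 CPM in NK cells. Against T cells it was 24.7-fold (19.1 to 31.7) and 12.1-fold (9.92 to 14.8) higher in ILC2 cells, and Lmo4 31.0-fold and 15.9-fold, with all 11 Gsdme-KO cells of the arm. These were 2 of only 4 genes (0.212% of 1883) at least 4-fold higher in ILC2 than in T cells in both libraries, the others being Irs2 and Zfp36l1, and 11 genes (0.584%), among them Ccl5 and Lck, were at most 0.25-fold. Without the 2 Gsdme-KO cells described below, each gene named here between NK and ILC2 cells was still past 4-fold in both libraries, and the values against T cells were not computed without them. Of the 9 ILC3 genes listed none was measured, and Il22 and Il17a had 0 UMIs in all 69 cells.

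Between the libraries, NK cells showed 22 of 903 measured genes (2.44%) at a ratio of Gsdme-KO over WT of at least 2 and 87 (9.63%) at most 0.5. The median over all 903 was -0.15 on the log2 scale, with 348 genes above and 555 below a ratio of 1, and other scalings moved it by at most 0.03. The floor of 20 UMIs is a higher CPM in Gsdme-KO, which had fewer NK UMIs, and so admitted more genes through WT. Without a floor the median was 0.038, with no UMI of Col3a1 or C1q genes 0.062, and with no receptor UMI 0.15, so no direction over all genes is read from it. At 20 UMIs counting error alone is wide, so the genes named are those with the interval farthest from 1 among many and are listed as a description. Of the 903 genes 109 were past either limit, and with a floor of 50 UMIs and 20% of cells 8 genes were. By comparison T cells, summed to 505888 and 467249 UMIs, had 84 higher and 131 lower among 4788.

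Immediate early and NF-kB feedback genes are switched on within minutes of receptor or stress signals. Of the 24 genes listed 18 were measured, and 3 of the 18 (Cd69, Egr1 and Ier5) were at a ratio of at most 0.5 in NK cells, against 9.63% of all 903. Altogether 16 stood below a ratio of 1 and 2 above it, against 555 below and 348 above over all genes, and the median was -0.58 against -0.15. In T cells 14 of 21 stood below 1 and the median was -0.08. Egr1, a zinc finger factor, was at 556 CPM in NK cells of WT and at 211 in those of Gsdme-KO (ratio 0.380, 0.183 to 0.727), and Ier5 at 426 and 176 CPM (0.413, 0.183 to 0.850). Klf6 stood at 1017 and 528 CPM (0.519, 0.330 to 0.794), the NF-kB inhibitor gene Nfkbia at 674 and 352 CPM (0.522, 0.297 to 0.882) and the RNA-decay factor gene Zfp36 at 828 and 457 CPM (0.552, 0.338 to 0.878). The orphan receptor gene Nr4a2 followed at 1337 and 809 CPM (0.605, 0.420 to 0.860). Btg2 (ratio 1.02) and Jund (1.06) were the 2 genes above 1. Against T cells of the same library 18 list genes were measured. Of these, 17 were higher in NK cells in WT (median log2 ratio 0.40) and 10 in Gsdme-KO (0.06). Over all 1950 genes measured against T cells, 434 were higher in WT (median -0.36) and 370 in Gsdme-KO (-0.43). The list thus stood above the genes as a whole in both libraries. Macrophage markers also differed, since 8 of 33 WT and 0 of 21 Gsdme-KO NK cells had a UMI of at least 3 of them. The share of such cells was also lower in Gsdme-KO in T cells (14.8% against 24.1%) and B cells (17.4% against 31.5%). It was not lower in ILC2 cells (1 WT cell and 3 Gsdme-KO cells). The part of these markers in the values of the list was not tested. Under the alternatives tried the list's median lay between -0.63 and -0.29.

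Cd69, the early activation antigen that also holds lymphocytes in tissue (chr6:129267325-129275436), had the lowest ratio of the list. It had 24 UMIs in 8 of 33 WT NK cells, of which 33.3% came from 1 cell, and 0 UMIs in the 21 Gsdme-KO NK cells. With 3 counts set for 0 it was at least 5.38-fold lower. T cells held Cd69 at 237 and 220 CPM and B cells at 121 and 123 CPM. After each cell was thinned to 1000 UMIs, 21.9% of WT NK cells had a Cd69 UMI. The 0% of Gsdme-KO NK cells was fixed beforehand, since none had a Cd69 UMI before thinning.

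**Figure D3:**
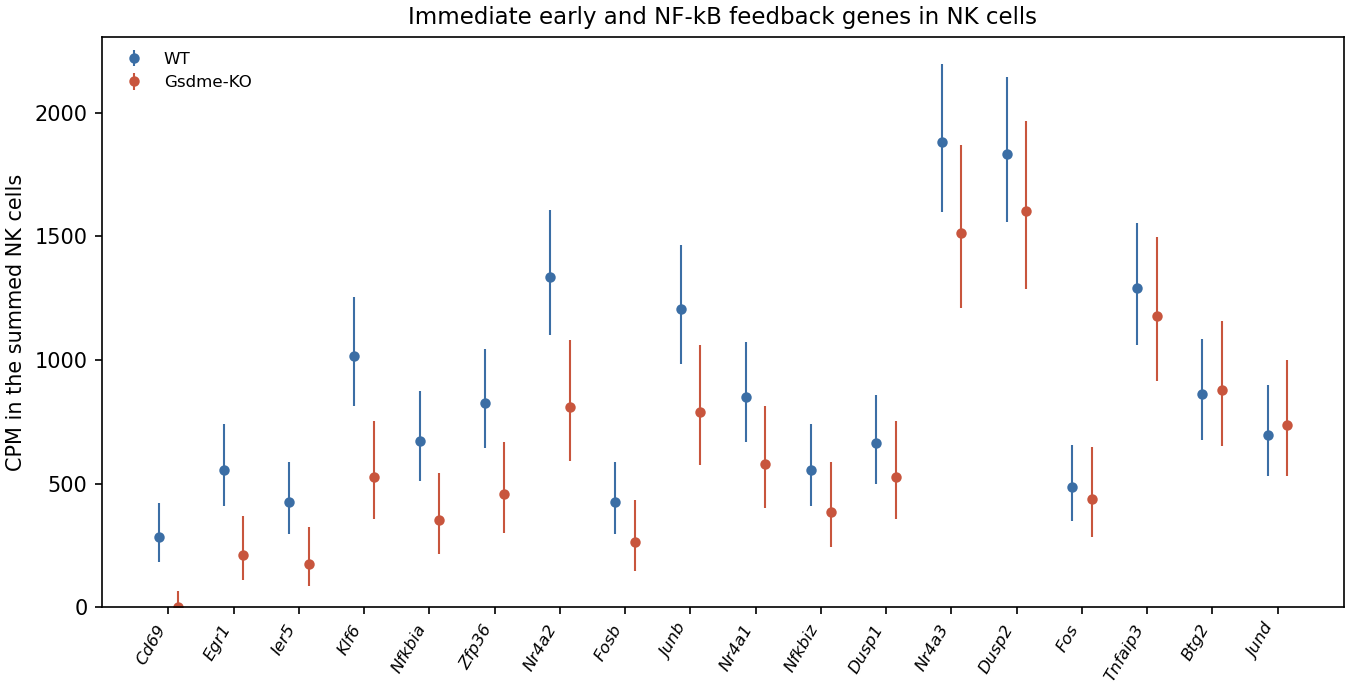
CPM of the 18 measured immediate early and NF-kB feedback genes in the summed NK cells of WT (blue, 33 cells) and Gsdme-KO (red, 21 cells), with exact 95% Poisson intervals that cover counting error only, ordered by ratio. All but Btg2 and Jund, at the right, had a lower CPM in Gsdme-KO, and Cd69 had 0 UMIs there.

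Of 11 heat shock genes 8 were measured, 1 at a ratio of at least 2 and 1 at most 0.5. Altogether 6 were below and 2 above a ratio of 1, against 555 below and 348 above over all genes, and the median was -0.39 against -0.15. Hspa8, a constitutive chaperone, stood at 2082 and 1161 CPM (0.558, 0.414 to 0.744) and Hsp90ab1 at 2650 and 1794 CPM (0.677, 0.530 to 0.860). Hspa1b, the inducible chaperone, was at 118 and 369 CPM (ratio 3.12), but 90.0% of its WT UMIs came from 1 cell and 61.9% of its Gsdme-KO UMIs from 1 cell, and it has a near-identical neighbour copy. In T cells 7 of 10 heat shock genes were below 1, with a median of -0.33.

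Of 15 listed genes of the killing machinery (granule and death ligand genes) 7 were measured. None was past a ratio of 2 or 0.5, against 12.1% of all 903 genes. Altogether 5 were above and 2 below a ratio of 1, against 348 above and 555 below over all genes. T cells went the same way, with 8 of 10 measured genes of this list above 1 and a median of 0.33, against -0.06 over all 4788 genes, so this direction is not particular to NK cells. Gzma had a ratio of 1.05 (0.862 to 1.28), Gzmb 1.56 (1.07 to 2.28), the granule proteoglycan gene Srgn 1.69 (1.20 to 2.38) and Nkg7 1.33 (0.888 to 1.98). Fasl, the ligand of the death receptor Fas, stood at 390 and 211 CPM (0.541, 0.254 to 1.07). Ccl5 had a ratio of 1.68, and 18.7% of its Gsdme-KO UMIs came from 1 cell. The list's median of 0.26 turned to -0.91 when only cells with no UMI of Col3a1 or the C1q genes were used (10 and 9 NK cells).

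Receptors and their adaptors were mixed. Klrk1 (the activating receptor NKG2D) stood at 568 and 281 CPM (0.496, 0.263 to 0.888), while the NKG2A gene Klrc1 stood at 248 and 475 CPM (1.91, 1.04 to 3.56) and Klra4 had a ratio of 1.86 (1.17 to 2.97). Cd247, the CD3 zeta chain that also carries signals of NK receptors (chr1:165788681-165877277), had 20 UMIs in 8 WT cells and 2 UMIs in 2 Gsdme-KO cells, 237 and 35.2 CPM (0.149, 0.0169 to 0.612). Its exons overlap those of Pou2f1 on the other strand and Gm16565 on the same strand, and T cells held it at 186 and 126 CPM. The other adaptors, Fcer1g and Tyrobp, had ratios of 1.08 (0.769 to 1.52) and 0.903 (0.572 to 1.41). Il18r1, a chain of the interleukin 18 receptor, was at 390 and 739 CPM (1.89, 1.17 to 3.08) and Il2rb at 2992 and 2709 CPM (0.905).

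Among 7 measured NK transcription factor genes 5 were above and 2 below a ratio of 1, against 348 and 555 over all genes. Zeb2, a transcription factor needed for the last steps of NK maturation (chr2:44983632-45117395), had 11 UMIs in 7 WT and 25 UMIs in 10 Gsdme-KO cells, 130 and 440 CPM (3.38, 1.60 to 7.61), and 36.0% of the latter came from 1 cell. Zeb2 overlaps the antisense gene Zeb2os. Id2, which blocks T and B cell programmes in innate lymphocytes, stood at 639 and 1091 CPM (1.71, 1.17 to 2.51) and Ets1 at 946 and 1460 CPM (1.54, 1.12 to 2.12). Runx3 (1.03) and Irf8 (1.17) were close to 1. Of the genes of mature circulating NK cells, 3 of 7 measured were above and 4 below, with a median of -0.19, near the -0.15 over all genes.

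B2m, the light chain of MHC class I, had 2295 and 4204 CPM (1.83, 1.51 to 2.23) in NK cells, whereas the heavy chain genes H2-K1 (1.08, 0.925 to 1.27) and H2-D1 (0.974, 0.806 to 1.17) stayed near 1. Aig1 was highest among the named genes, with 1 UMI in WT and 23 UMIs in 6 Gsdme-KO cells (34.2, 5.55 to 1409), followed by Dnm1l, the GTPase of mitochondrial fission, with 3 UMIs in 3 of 33 and 20 UMIs in 14 of 21 cells (9.91, 2.94 to 52.1). G3bp1, Gem, Rbbp8, Dnajc3, Eef1b2 and Brd1 had ratios of 2.15 (Eef1b2) to 4.25 (G3bp1). On the lower side Tpm3-rs7 stood at 414 and 35.2 CPM (0.0850), but this copy of a tropomyosin gene is near-identical to its parent and was also lower in B cells, at 230 and 55.1 CPM. Lgals9, which encodes galectin 9, stood at 260 and 35.2 CPM (0.135, 0.0154 to 0.550) and Rel, an NF-kB subunit, at 438 and 123 CPM (0.281, 0.106 to 0.639). Chd2, B4galt5, Pdlim5 and Snx5 had ratios of 0.194 (B4galt5) to 0.303 (Chd2).

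**Figure D4:**
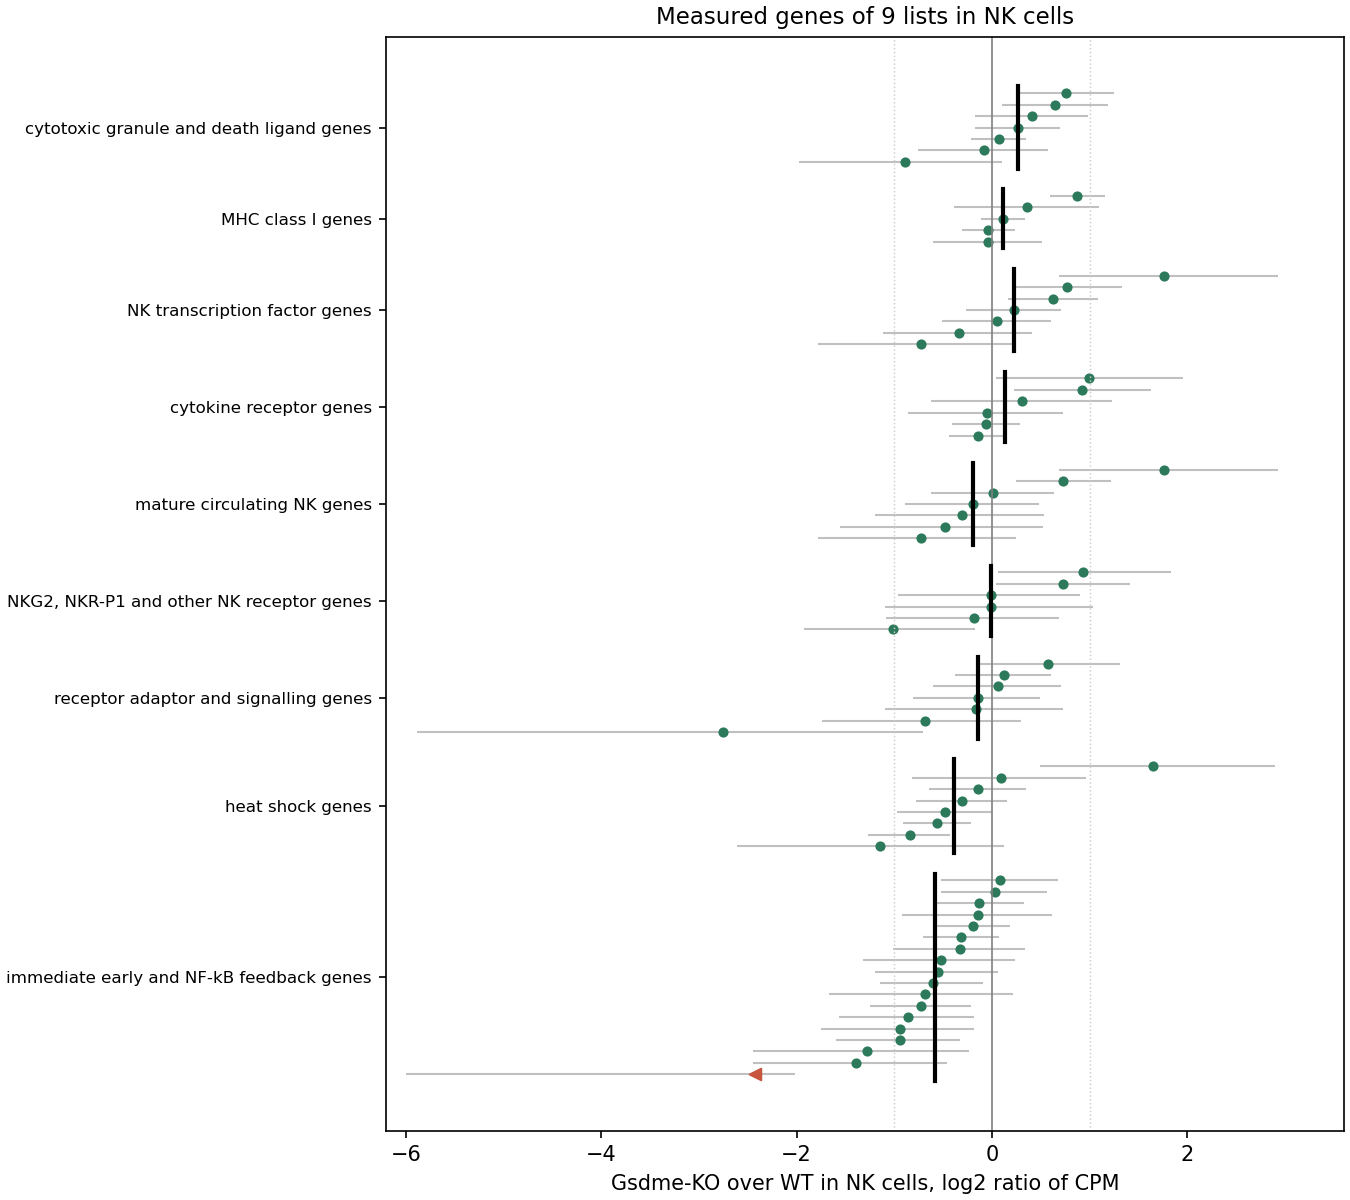
Log2 ratio of CPM of Gsdme-KO over WT in NK cells for the measured genes of 9 lists, 1 row of points per gene with its 95% counting interval (grey) and the list's median (black bar). The immediate early list at the bottom has its median at -0.58, and the triangle is Cd69, with 0 UMIs in Gsdme-KO, set at 3 counts and with its interval cut short at the left.

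Traces of other cell types were present in the NK cells of both libraries. Of 12 macrophage markers 9 had a UMI in the WT and 6 in the Gsdme-KO NK cells, with Csf1r at 0 in both, and their sum was 816 and 545 CPM against 30774 and 30495 CPM in macrophages. T cells carried a like trace (781 and 758 CPM). Fibroblast markers summed to 568 and 897 CPM in NK cells of WT and Gsdme-KO, with Pdgfra at 0, and at least 3 of 8 were found in 4 and 6 cells. Neutrophil markers summed to 189 and 17.6 CPM (16 UMIs and 1 UMI), endothelial markers to 47.3 and 281 CPM (4 and 16 UMIs, with Cdh5 and Kdr at 0 in both) and platelet markers to 59.1 and 246 CPM (5 and 14 UMIs, with Gp9 at 0 in both). The part of these traces in the differences between the libraries was not tested.

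The ILC2 arm held 2 Gsdme-KO cells with many UMIs of genes of other cell types. One, of 6991 UMIs, had 87 UMIs of Lyz2 (lysozyme, a myeloid gene), 46 of the neutrophil-attracting chemokine gene Cxcl2, 21 of Il1b, 8 of Itgam, 3 of Cd68 and 2 of Csf1r, beside 15 of Il1rl1, 10 of Rora, 5 of Il7r and 2 of Gata3. The other, of 3809 UMIs, had 103 UMIs of Il1b, 48 of Ccl3, 36 of Il6, 30 of the vesicular monoamine transporter gene Slc18a2, 28 of Hdc (histidine decarboxylase) and 22 of Gata2, the last 3 being genes of mast cells and basophils, and no UMI of Il7r, beside 5 of Il1rl1 and 4 of Rora. The main values on ILC2 cells between the libraries are given with and without these 2 cells, a choice made after seeing their values. The other 13 cells, 4 in WT and 9 in Gsdme-KO, all had a UMI of Il7r, which the rule did not use. T cells also held Il7r, at 1453 CPM in WT and 1410 in Gsdme-KO, so it does not separate this arm from T cells. Leaving out every cell with a UMI of Trac, Trbc1, Trbc2 or Trdc left 2 WT and 5 Gsdme-KO cells of the whole arm. Whether some cells of the arm were T cells without a Cd3 UMI was not tested. The prostaglandin receptor gene Ptgdr2, a common ILC2 marker, had 0 UMIs in all 15 cells.

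The effector genes of ILC2 cells differed from cell to cell. Il5, a gene of the rule, had 8 and 23 UMIs in 2 of the 4 WT cells and 0 in the other 2, and 1 UMI in 1 of the 11 Gsdme-KO cells. Il13 had 1 UMI in 1 WT cell. The 4 WT cells held 12, 12, 1 and 0 UMIs of Areg (amphiregulin, an epidermal growth factor receptor ligand of tissue repair, chr5:91139599-91148432), and the 11 Gsdme-KO cells held at most 4 UMIs each. Summed, Areg stood at 1952 and 402 CPM (ratio 0.206, 0.0989 to 0.412) and, without the 2 cells, at 1952 and 582 CPM (0.298, 0.143 to 0.596). Of the WT UMIs 48.0% came from 1 cell. Its direction turned when cells with any UMI of Col3a1 or the C1q genes were left out (1 WT cell against 4, log2 ratio 1.15), and the interval does not cover differences between cells. T cells held Areg at 9.88 and 49.2 CPM.

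Calca, which encodes the neuropeptide CGRP, had 1 UMI in the 4 WT cells and 32 UMIs in 5 of 11 Gsdme-KO cells, with 23 of these in 1 cell (31 UMIs in 4 of 9 cells without the 2 set apart). Arg1, arginase 1, was in 3 of 4 and 7 of 11 cells. Areg and Calca were found together in 0 WT and 2 Gsdme-KO cells. Il7r had close values in the libraries, at 2264 and 2324 CPM (1.03, 0.664 to 1.63) and a ratio of 1.40 (0.899 to 2.22) without the 2 cells. Il2ra stood at 1639 and 1090 CPM (0.665, 0.381 to 1.19) and had a ratio of 0.938 (0.535 to 1.69) without the 2 cells. Il17rb, the interleukin 25 receptor, was in 2 of 4 and 3 of 11 cells, and Kit had 9 UMIs in WT and 3 in Gsdme-KO.

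**Figure D5:**
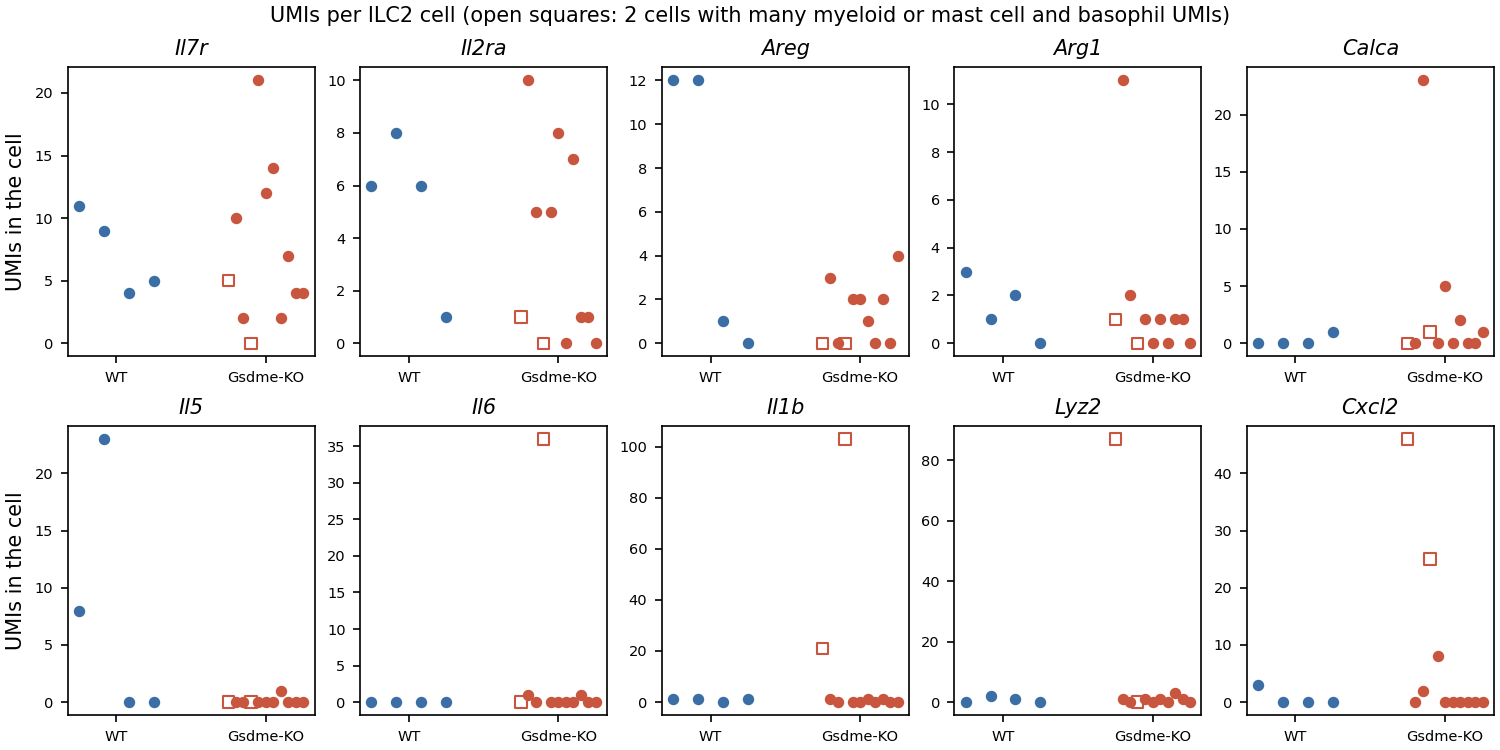
UMIs of 10 genes in each ILC2 cell of WT (4 cells, blue) and Gsdme-KO (11 cells, red), with the cells of a library ordered by total UMIs from left to right and a linear axis for each gene. Open squares are the 2 Gsdme-KO cells with 6991 and 3809 UMIs, which hold most UMIs of Il6, Il1b, Lyz2 and Cxcl2, while the highest Areg values, 12 and 12 UMIs, are in WT cells.

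Across genes, 76 of 255 measured genes (29.8%) had a ratio of at least 2 and 14 (5.49%) at most 0.5 in ILC2 cells, with a median of 0.47 on the log2 scale. The floor of 20 UMIs is a far higher CPM in WT, whose ILC2 cells held fewer UMIs, so genes entered mostly through Gsdme-KO. Without a floor the median was -0.44, so no direction over all genes is read from these counts. Scaling by trimmed mean of M values moved that median by 0.48 and the counts to 120 and 5. Without the 2 cells 176 genes were measured, 32 at least 2 and 9 at most 0.5. All of the 8 genes named as higher (Il1b, Ccl3, Olfr1033, Lyz2, Il6, Cxcl2, Pde10a and Slc18a2) had their UMIs concentrated, with 56.8% (Cxcl2) to 98.0% (Ccl3) in 1 cell. Without the 2 cells Il1b had 3 UMIs in each library, Lyz2 a ratio of 1.24 (0.284 to 7.45) and Ccl3 0 UMIs, whereas Pde10a, a phosphodiesterase gene, had 34 UMIs in 2 cells, neither of them set apart. Lower genes beside Areg were Ywhab, Hsp90ab1, Id2, Fam107b, Lmo4, Kctd12 and Nr4a3. Id2 stood at 2108 and 660 CPM (0.313, 0.172 to 0.567) and at 0.335 (0.172 to 0.638) without the 2 cells, and Hsp90ab1 at 3123 and 947 CPM (0.303) and at 0.373 (0.222 to 0.620). Without the 2 cells Lmo4 (0.519) and Nr4a3 (0.518) were no longer at or below 0.5. Kctd12 had 83.9% of its WT UMIs in 1 cell.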

How the data were processed

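Aortic cells of mice given PPE were digested with collagenase I and DNase I and captured on BD Rhapsody, as stated per the labels' protocols. The authors deposited, for each library, whole-number counts of UMIs per gene and barcode (31253 features), not normalised. They are taken to be UMI counts from the platform. CASAVA 1.8, STARsolo and mm10 are named in the submitters' processing notes, and the annotation and strand setting are not given in the sources used here. Gene positions came from GENCODE M21 (31107 features matched) and promoters from RefSeq (GRCm38.p6).

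For each class in a library, counts were added up and expressed as CPM. Ratios carry exact conditional binomial intervals, CPM exact Poisson and shares exact binomial (Clopper-Pearson) intervals, and ratios of shares log-normal (Katz) intervals, all at 95% and covering counting error only. Comparison cells were gated, T cells on at least 2 UMIs of Cd3 genes. Doublets were not called here, and the 5% of cells with the most UMIs were left out in an alternative. Measured genes had at least 20 UMIs and a UMI in 10% of cells in the higher group. Named genes also reached 10% of the CPM of the highest class and a ratio of 2 or 0.5 (4 or 0.25 between classes), and the 10 each way (8 in ILC2) with the interval end farthest from 1 were taken, without gene models, ribosomal, mitochondrial, receptor segment and sex-linked genes. Members of the gene lists (434 genes, 429 in the files) could be given beside them. Some genes that the rule or the lists would name are not reported here. The ratio code was tested on simulated data. The members and lists were chosen with earlier results of these data known. Work was done in Python 3.11.15 (scipy 1.17.1) and R 4.3.3 (edgeR 4.0.16, for scaling factors only).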

Additional observations from a re-analysis of the deposited data

How the results depend on the processing

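The ratio of NK shares lay between 0.532 and 0.781 and that of ILC2 shares between 1.45 and 3.65 under the alternatives tried, each on the side of 1 given above. Counts of genes past the fold depended on the cells and the floor. NK genes past the fold between libraries, 109 as reported, became 57 with no UMI of Col3a1 or C1q genes, 31 with no UMI of Trac, Trbc1, Trbc2 or Trdc, 2200 without a floor, 8 with 50 UMIs and 20% of cells, and 24 after thinning to 1000 UMIs. In the same order the 90 ILC2 genes past the fold became 8, 37, 1589, 16 and 8, and were 27 with 1 more gate gene and 41 without the 2 cells set apart (chosen after seeing the data). The 26 NK against ILC2 genes past the fold became 2, 11, 107, 11 and 4, and were 12 with a Ptprc UMI asked for and 14 without the 5% of cells with the most UMIs. The 48 NK against T genes past the fold became 18, 12, 298, 30 and 20. Log2 values that changed sign were the NK median over all genes (0.062 with no Col3a1 or C1q UMI, 0.15 with no receptor UMI, 0.038 without a floor), the ILC2 median (-0.44 without a floor), Gem (-0.34) and Brd1 (-0.17) with no receptor UMI, Lyz2 in ILC2 cells (-0.53 without the 5%), and Areg (1.15) and Kctd12 (2.38) in 1 against 4 ILC2 cells with no Col3a1 or C1q UMI. Among list medians in NK cells, cytotoxic genes stood at -0.91 and transcription factors at -0.075 with no Col3a1 or C1q UMI, adaptors at 0.14 without the 5% and 0.022 as a mean over cells, cytokine receptors at -0.13 with 1 more gate gene and -0.055 without the 5%, and MHC class I at -0.027 with 1 more gate gene and -0.23 without a floor. The causes were not tested. No paired analysis was possible because each group had 1 library. With 54 NK and 15 ILC2 cells, a gene under 20 UMIs in both groups is in none of the counts over genes.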
